A study of Caenorhabditis elegans with 3 samples.

Results

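The regions compared here are peaks of trimethylation of lysine 4 on histone H3 (H3K4me3) in whole Caenorhabditis elegans of an SMX-exposed generation, F11, and of non-exposed descendants, F14'. SMX is sulfamethoxazole, a sulfonamide antibiotic. Peaks of both tables were joined wherever they shared at least 1 bp on the same chromosome, which sorted all 734 listed peaks, 95 in F11 and 639 in F14', into 3 sets. Overlapping peaks numbered 53 in F11 and 54 in F14', because 1 F11 peak spanned 2 F14' peaks. The remaining 42 F11 peaks are called F11-only and the remaining 585 F14' peaks F14'-only.

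Both groups are whole-body material of wild-type worms grown at 20 °C on NGM plates. F11 worms received SMX in K-medium for 6 days in each of 11 generations, and F14' worms received K-medium alone. The labels number F14' as generation 14 and also call it the earliest progeny raised without the drug, while nothing in the labels describes the generations between. A control on K-medium, whose generation is not given, is named in the labels as the comparator of both libraries and was not analysed here by itself. Whether the peak caller's background for F14' was that control was not tested. The labels give neither the SMX dose nor how many animals were pooled.

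Each group had 1 library. Differences between them were therefore not checked by replicates and carry no p-value, and every interval is for counting error alone. Exposure, generation number and library cannot be told apart in any contrast of F11 with F14'. Whole animals were used, so fewer cells carrying the mark and less of the mark per cell cannot be told apart either.

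H3K4me3 is a histone mark deposited by SET1/MLL-type methyltransferase complexes and found mostly around the starts of active genes. In C. elegans the complexes built on SET-2 and SET-16 make it, with subunits such as ASH-2 and WDR-5.1. The mark can pass through the germ line, and loss of ASH-2, WDR-5.1 or SET-2 in parents is known to affect lifespan in descendants that carry the genes intact.

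The sets were chosen from the peak lists, so tags, widths and overlap below describe the sets and test nothing. A level is given as tags per kb of peak, that is, the authors' count of sequenced fragments in a peak divided by its length. These counts include the local background and are not scaled for library depth, which the labels and tables leave unknown. The score of a peak is -10 times the base-10 logarithm of the peak caller's p, and the fold is the caller's enrichment over its background. Both are the authors' values and rank peaks within 1 table.

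Most F11 peaks had a partner in F14', while most F14' peaks had none in F11. Of the F11 peaks 55.8% overlapped an F14' peak (exact 95% interval 45.2 to 66.0%), and of the F14' peaks 8.45% overlapped an F11 peak (6.41 to 10.9%). The regions in both tables included the densest F11 peaks, at C34E11.9, anr-53 and F52G2.3. The F11-only peaks were all of low density, whereas the F14'-only peaks spanned the whole range, with fbxa-55, Y7A5A.7 and the channel gene lgc-26 at the top.

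The median level of overlapping peaks was 367 tags per kb in F11 (quartiles 318 and 594), against 378 in F14' (317 and 619). For F11-only peaks it was 296 tags per kb (287 and 309) and for F14'-only peaks 298 (284 and 385). The medians of the 2 unmatched sets were therefore alike, and the sets differed in their upper range. F11-only peaks ended at 555 tags per kb, at T26H5.8, while F14'-only peaks reached 7849 tags per kb, at fbxa-55. As many as 104 F14'-only peaks were denser than the densest F11-only peak, and 9 were denser than any overlapping F14' peak.

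**Figure D1:**
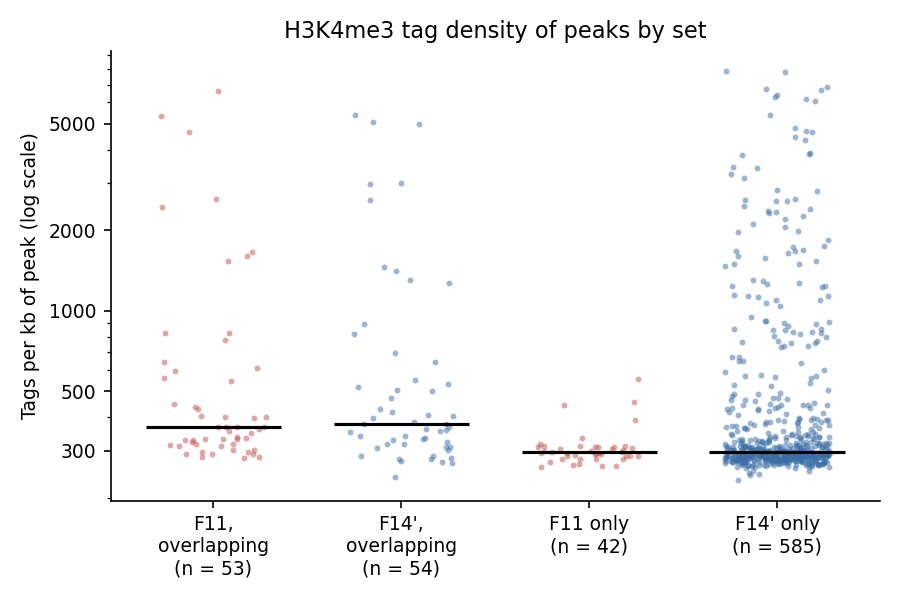
Tags per kb (log axis) of each peak, by set, with overlapping F11 and F14' peaks at the left and F11-only and F14'-only peaks at the right. Each point is 1 peak and the black bar is the median of the set. F11-only points stay at or below 555 tags per kb, and F14'-only points reach 7849.

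In F11, the share of peaks with a partner was higher at higher density. Of F11 peaks under 300 tags per kb, 8 of 32 overlapped an F14' peak (25%), as did 23 of 38 between 300 and 400 (60.5%) and 9 of 12 between 400 and 600 (75%). All 13 F11 peaks of 600 tags per kb or more had a partner. In F14' the share was 9 of 312 under 300 tags per kb (2.88%), 21 of 166 between 300 and 400 (12.7%) and 10 of 50 between 400 and 600 (20%). It was lower again above that, with 6 of 43 at 2000 tags per kb or more. Among the 20 densest peaks of each table, 17 in F11 and 3 in F14' had a partner.

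**Figure D2:**
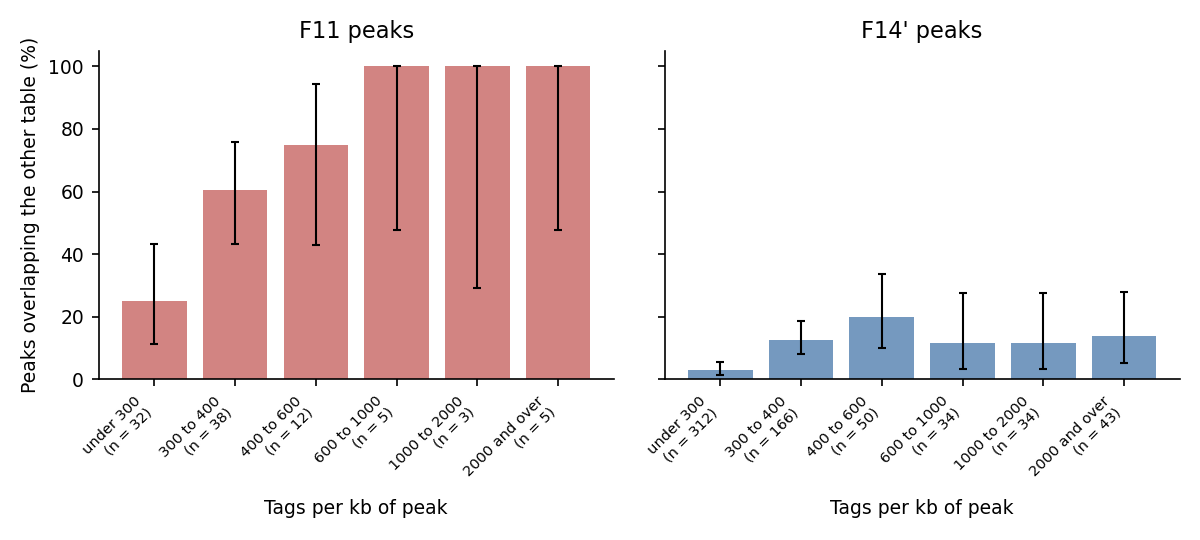
Share of peaks (percent) that overlap a peak of the other table, by tags per kb of the peak, for F11 and F14', with exact 95% binomial intervals as bars and the counts given. The F11 share is 25% in the sparsest class and 100% from 600 tags per kb upward, while the F14' share stays at or below 20%.

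At the overlapping pairs the levels of both libraries were close. Both peaks of a pair had to be called, which limits how far a sparse pair could differ. The ratio of tags per kb, F11 over F14', had a median of 0.972 (quartiles 0.878 and 1.06, range 0.495 to 1.30), with 28 pairs below 1 and 26 above. The Spearman correlation of the levels was 0.918 over 54 pairs, given as a description since the pairs share libraries and their peak lengths. At 2 pairs (3.7%) the ratio was at least 25% above the median, at 6 pairs (11.1%) at least 20% below it, and at 46 in between. These limits are a convention of size and not a test.

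The 2 pairs above that limit were the region of C34E11.9 and that of mys-2. The first lies on chromosome X at 11785187 to 11789965 in F11 (ce10, as are all coordinates here) and held 31515 tags in F11 and 24557 in F14', or 6594 and 5084 tags per kb. It was the densest F11 peak of all, and its ratio was 1.30 (counting interval 1.28 to 1.32). The F11 annotation gives the peak to C34E11.9 as intergenic, and the F14' annotation gives it to Y102F5A.1 as upstream. At mys-2, which encodes a MYST-family histone acetyltransferase, F11 had 725 tags and F14' 562, or 613 and 473 tags per kb, with a ratio of 1.30 (1.16 to 1.45). This peak was centred 9559 bp from the start of mys-2 in F11 and was classed as intergenic in both tables.

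The 6 pairs below the limit were lower in F11 than in F14'. At acd-5, a gene of the DEG/ENaC channel family, F11 had 1767 tags and F14' 3799, or 643 and 1298 tags per kb. Its ratio of 0.495 (0.468 to 0.524) was the lowest of all pairs, and its intervals were nearly the same, at chromosome I, 3663848 to 3666597 in F11 and 3663750 to 3666676 in F14'. At Y75D11A.1 F11 had 6126 tags and F14' 9931 (1660 and 2600 tags per kb, ratio 0.638). At irld-1, a gene for a protein with insulin/EGF-receptor-like L domains, F11 had 3501 tags and F14' 5623 (827 and 1268 tags per kb, ratio 0.652). At gmeb-3, a homologue of a glucocorticoid modulatory element binding protein, the promoter peak had 542 tags in F11 and 924 in F14' (334 and 500 tags per kb, ratio 0.668). The intergenic peak given to M01E5.1 in F11 and to M01E5.2 in F14' had 364 and 781 tags (325 and 430 tags per kb). The remaining pair was the promoter peak of the C-type lectin gene clec-135, with 482 tags in F11 and 815 in F14' (402 and 521 tags per kb, ratio 0.772).

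Next to these stood nlp-38, a neuropeptide-like protein gene, with 548 tags per kb in F11, against 696 in F14', and C16C8.10 with 400 and 506. On the other side were Y57A10B.7 (284 tags per kb in F11, against 240 in F14'), T13G4.1 (367 and 318), Y73B6A.1 (406 and 353), Y22D7AR.12 (318 and 280), Y51A2B.16 (1603 and 1412) and age-1 (337 and 302). The age-1 gene encodes the catalytic subunit of the PI3-kinase of the insulin pathway, and its counting interval of 0.963 to 1.30 holds the median ratio. In all, the counting interval held the median at 28 pairs, lay above it at 10 and below it at 16.

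The other pairs of high density were closer to equal. The peak of anr-53, listed as fbxa-75 in F14', had 22629 tags in F11 and 24119 in F14' (5355 and 4999 tags per kb). The F52G2.3 promoter peak had 5247 and 6275 tags (4672 and 5382 tags per kb), and Y54F10AM.8 14755 and 17300 (2623 and 3006). The intergenic region of the embryonic gene pes-10, listed as upstream of the ligand-gated channel gene lgc-35 in F14', had 7733 and 10072 tags (2443 and 2968 tags per kb). The Y14H12A.1 promoter peak had 1719 and 1734 tags (1538 and 1461 tags per kb). Over the 14 pairs with a mean of at least 600 tags per kb, the median ratio was 0.899 and 10 were below 1, against 1.02 and 18 of 40 among the sparser pairs. By the class in F11, the median ratio was 1.03 over 19 promoter pairs, 0.925 over 17 upstream pairs and 0.961 over 16 intergenic pairs.

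**Figure D3:**
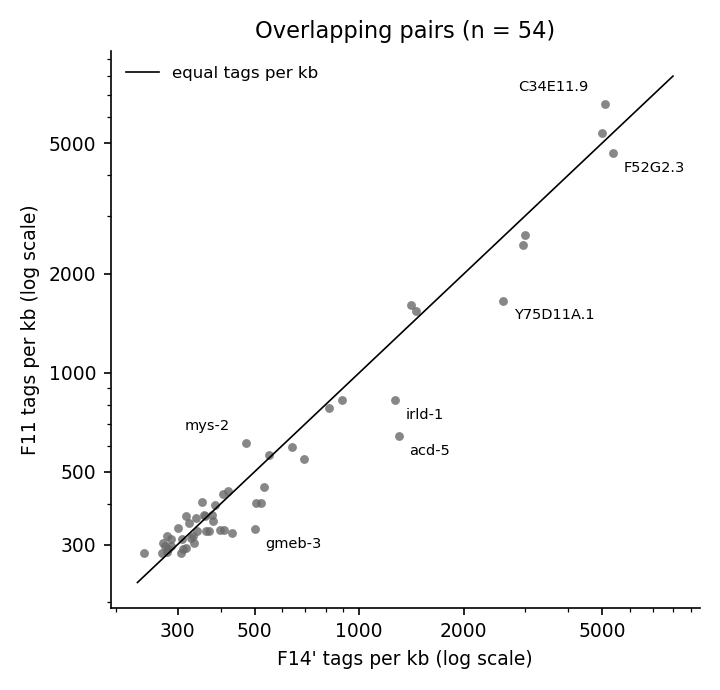
Tags per kb in F11 (vertical, log axis) against F14' (horizontal, log axis) at the 54 overlapping pairs, with the line of equal levels. Most points lie near the line, C34E11.9 and mys-2 lie above it, and acd-5, Y75D11A.1, irld-1 and gmeb-3 lie below it.

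Levels of like size had unlike scores. The score was higher in F14' at 44 of the 54 pairs and higher in F11 at 9, with medians of 72.5 in F11 and 219 in F14'. At C34E11.9 both scores were 3100, a value that many F14' peaks share. At F52G2.3 the score was 47.1 in F11 and 3100 in F14', although the tags per kb differed by a ratio of 0.868. At srh-245, a chemoreceptor gene whose region is listed as srh-246 in F14', the scores were 38.9 and 1759 at 824 and 891 tags per kb. At the bestrophin gene best-2 they were 102 and 1778 at 779 and 820 tags per kb. A score of 3100 or more was given to 1 F11 peak, 10 overlapping F14' peaks and 58 F14'-only peaks. Peaks enter a table by their p, and the part of this difference in score in the size of the F14'-only set was not tested. An FDR is given for F11 alone, and whether both libraries were called against the same background was not tested. Scores and folds of F11 and F14' may therefore not be on 1 scale. The level of the F11 library at F14'-only regions is not among the values used here.

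The paired intervals were mostly nested. In 35 pairs the F11 interval lay wholly inside the F14' interval, in 5 the reverse held, and in 14 neither was nested. F14' was the wider one in 45 pairs, and the median difference in width, F11 minus F14', was -208.5 bp. The median width of overlapping peaks was 1978 bp in F11 and 2160 bp in F14', against 1942.5 bp for F11-only and 1761 bp for F14'-only peaks. Summits lay a median of 282 bp apart, within 100 bp at 22 pairs and more than 500 bp apart at 23. The farthest were those of snx-1, a sorting nexin gene, at 3240 bp.

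The smallest overlaps inside the rule were 580 bp at lgc-30, 726 bp at K10B4.1 and 727 bp at the region given to the piRNA gene 21ur-12599 in F11 and Y110A2AL.4 in F14'. Just outside it lay the F11-only peaks of F15D4.6, 513 bp from an F14' peak, Y73B6A.1 (1233 bp) and linc-64 (1405 bp), and the F14'-only peaks of Y39E4B.13 (100 bp from an F11 peak), linc-98 (493 bp) and Y48C3A.1 (513 bp). No pair rested on fewer than 580 shared bases.

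Some regions held peaks of several sets next to each other. Near Y73B6A.1 on chromosome IV, F11 had peaks of 406 tags per kb (6668008 to 6671729) and 390 (6671935 to 6675839), while F14' had peaks of 353 (6668183 to 6670701) and 286 (6662177 to 6663601). The first of each table overlapped. The second F11 peak was listed 5900 bp upstream of a start of this gene and the second F14' peak 368 bp upstream of one. By the coordinates these 2 distances are not to the same start. At lgc-30 a single F11 peak of 282 tags per kb bridged F14' peaks of 308 and 271. At Y39E4B.13 on chromosome III an F14'-only peak of 8060 bp and 445 tags per kb ended 100 bp before the F11 peak of 333. That F14'-only peak ended at 13082467. A second F14' peak of 397 tags per kb (13082489 to 13086683) covered the F11 peak. On chromosome X the F11-only peak of Y64H9A.2 (456 tags per kb) and the F14'-only peak of Y64H9A.1 (6061 tags per kb) were 2650 bp apart. At tos-1, whose transcripts are alternatively spliced, the overlapping peaks of 354 and 379 tags per kb were flanked in F14' by peaks at K07B1.8 (397) and K07B1.7 (290). These regions were chosen after their values were seen.

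**Figure D4:**
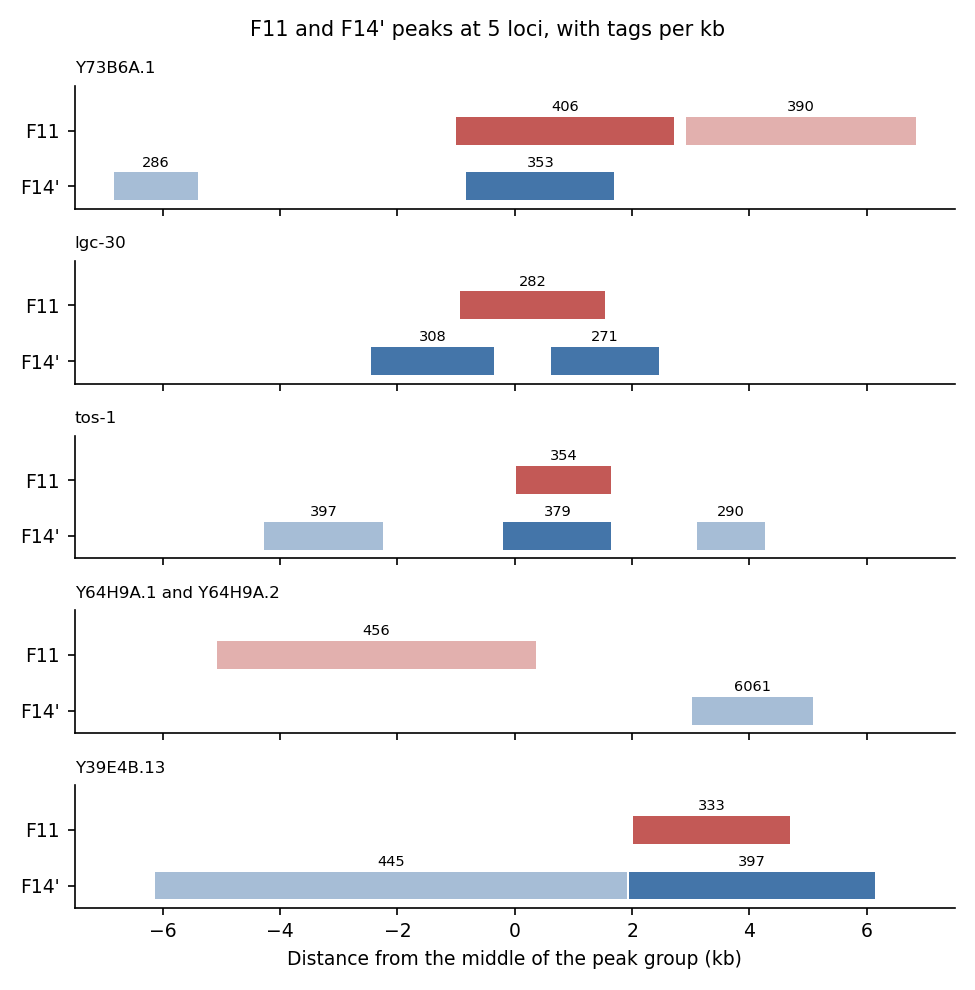
Peaks of F11 (upper track) and F14' (lower track) at 5 regions, by distance in kb from the centre of each region, with tags per kb above each bar. Dark bars overlap a peak of the other table and pale bars do not. F11 and F14' bars at Y64H9A.1 and Y64H9A.2 lie 2650 bp apart with 456 and 6061 tags per kb.

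The F11-only peaks were shallow throughout. Each listed a single gene, 3 of 42 had a score of at least 100, and in the authors' deposited table all 42 had a false discovery rate (FDR) of 100%, as did the overlapping F11 peaks other than that of C34E11.9. The densest was T26H5.8 on chromosome V (15426285 to 15435831, 9547 bp), with 5300 tags in F11, or 555 tags per kb. It was followed by Y64H9A.2 (456), T06F4.1 (446), Y73B6A.1 (390) and cutl-26, a cuticlin-like gene (336). The other 37 lay between 260 and 318 tags per kb. Y73B6A.1 had the highest score among them, 308, with a fold of 3.11.

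By gene family, the F11-only peaks included 5 chemoreceptor genes of the large receptor families that sense chemicals, namely srh-292 (318 tags per kb), srt-38 (309), srsx-1 (304), srz-44 (267) and sra-20 (266). The F-box genes fbxb-54 (295), fbxc-30 (281) and fbxb-5 (262) were there too, as were the C-type lectin gene clec-70 (287), the acyltransferase-like gene oac-39 (309) and the piRNA genes 21ur-5573 (314), 21ur-14095 (312), 21ur-1442 (291) and 21ur-12347 (260). The labels do not say how reads that match several members of a family were counted. Of the 42 genes, 1 was also listed for an F14' peak, Y73B6A.1. Of the 793 genes of F14'-only peaks, 8 were also listed for an F11 peak. At overlapping peaks F11 listed 54 genes, and 42 were listed there in both F11 and F14'. Unmatched peaks were chosen for having no peak of the other library at their place, so few shared genes follow in part from the rule. From the F11-only peaks the nearest F14' peak lay a median of 24946 bp away. It was within 5 kb for 8 of these peaks and at most 633347 bp away, at linc-113.

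The F14'-only peaks held 37 of the 43 F14' peaks with at least 2000 tags per kb. The densest were those of the F-box gene fbxa-55 (12676 tags, 7849 tags per kb), Y7A5A.7 (40755, 7773), Y95B8A.2 (16192, 6852) and lgc-26, a ligand-gated ion channel gene (21886, 6761). F14F11.2 had the most tags of any peak, 44316, at 6700 tags per kb. Then came Y49G5A.1 (6391), elk-2, an ETS-domain factor gene (6306), the C-type lectin gene clec-9 (6207), Y64H9A.1 (6061) and B0403.6 (5371). The F11 peak nearest to these lay 2650 bp away at Y64H9A.1 and 4016560 bp away at Y7A5A.7. A score of 3100 or more was given to 58 F14'-only peaks, and ties, as at 3100, were ordered by fold. By score the first were R57.2 (4337 tags per kb), the dynactin subunit gene dnc-6 (4662), fbxa-55, Y106G6H.9 (1293), T23B5.6 (3455), the poly(A) polymerase gene pap-1 (1731) and a piRNA cluster headed by 21ur-9229 (2103). T28H10.2 (1990), the V-ATPase gene vha-19 (1752) and the microRNA gene mir-249 (1965) followed.

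Of the 37 densest F14'-only peaks, 11 were classed as promoter, 13 as upstream and 12 as intergenic. Over all F14' peaks, the promoter share was 68.6% under 300 tags per kb and 27.9% at 2000 or more. The share was thus lower among the dense F14' peaks of this library than among the sparse ones.

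By the distances listed, which are not like for like between F11 and F14' or between the F14' sets, the F14'-only peaks lay closest to gene starts. The median distance of the peak centre was 1988.5 bp for F11-only and 1431 bp for F14'-only peaks, and 2772 bp in F11 and 2024.5 bp in F14' for overlapping ones. The authors class a peak as promoter within 2 kb of a start, and 21 of 42 F11-only peaks (50%, 34.2 to 65.8%) and 357 of 585 F14'-only peaks (61.0%, 56.9 to 65.0%) had that class. Of the overlapping peaks it was 19 of 53 in F11 (35.8%, 23.1 to 50.2%) and 27 of 54 in F14' (50%, 36.1 to 63.9%). The intervals within each pair of sets overlap. The 2 values for overlapping peaks describe the same regions. The class differed at 10 of 54 pairs, 8 of them promoter in F14' alone, among them srh-245, nlp-38, K10B4.1 and F32H5.4. F14' listed several genes at 118 of its 585 unmatched peaks (20.2%), and F11 at none of its 42. With the nearest start among genes listed in either table, the overlapping F11 share was 45.3%, a setting chosen after seeing the data.

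The shares nearer to the start follow, each by the nearest start among the genes listed for a peak. Several genes were listed at 122 of 639 F14' peaks and at 1 of 95 F11 peaks. At the overlapping regions, which are the same places, the median distance was also shorter in F14' (2024.5 against 2772 bp). The share within 1 kb was also higher there in F14', and that within 500 bp was not. Shares of F11 and F14' sets are therefore not like for like. Within F14', several genes were listed at 118 of 585 F14'-only peaks (20.2%) and at 4 of 54 overlapping peaks (7.41%). The shares of these 2 sets by distance are therefore not like for like either. The centre lay within 1 kb of a start at 9 of 42 F11-only peaks (21.4%) and at 222 of 585 F14'-only peaks (37.9%). Of overlapping peaks it did so at 7 of 53 in F11 (13.2%) and at 11 of 54 in F14' (20.4%). Within 500 bp there were 3 F11-only peaks (7.14%) and 126 F14'-only peaks (21.5%, 18.3 to 25.1%). Overlapping peaks had 3 in F11 (5.66%) and 2 in F14' (3.70%). Of the 128 F14' peaks centred that close to a start, 2 overlapped an F11 peak (1.56%, 0.190 to 5.53%), those of the chemoreceptor gene srh-105 and of C31G12.12. Between 500 bp and 1 kb the share of F14' peaks with a partner was 7.69%.

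**Figure D5:**
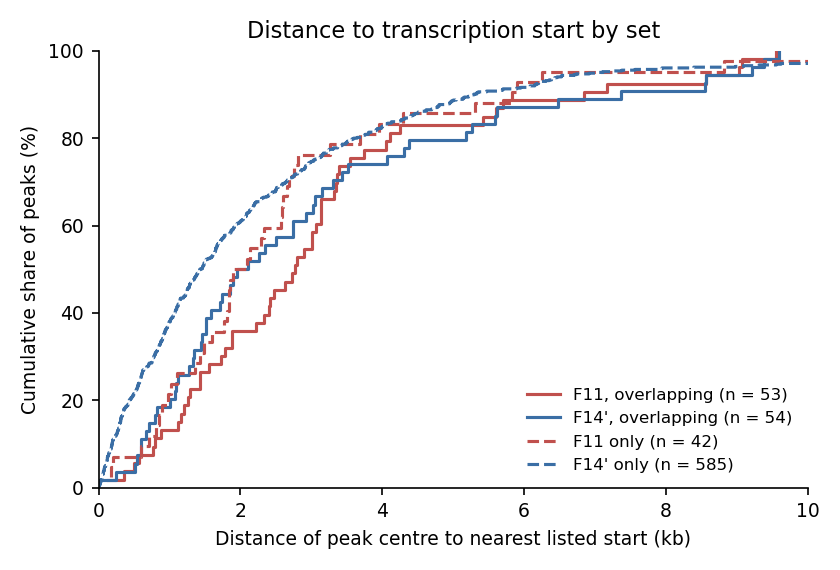
Cumulative share of peaks (percent) by distance of the peak centre from the nearest listed start (kb, shown to 10 kb), for overlapping and unmatched peaks of F11 and F14'. The F14'-only curve lies highest within 2 kb, with 37.9% of peaks within 1 kb, against 21.4% of F11-only peaks. F14' lists several genes per peak more often than F11, and F14'-only peaks do so more often than overlapping F14' peaks. The curves are therefore not like for like.

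The 126 F14'-only peaks centred on starts were sparse and narrow, with a median of 290 tags per kb and 1532 bp, and 89 of them had a protein-coding gene nearest. Of the gene lists counted below, other noncoding RNA genes were listed at 35 of them (27.8%, against 19.1% of all F14'-only peaks). piRNA genes were listed at 17 (13.5% against 8.38%), chemoreceptor genes at 10 (7.94% against 6.84%) and F-box, MATH and BTB genes at 5 (3.97% against 3.08%). A peak that lists several genes has more starts to lie near and more genes that can be on a list. These shares are therefore not like for like. Examples of named protein-coding genes, chosen after their values were seen and not a count of any group, were the proteasome ATPase genes rpt-2 (293 tags per kb) and rpt-4 (284), the autophagy gene lgg-1 (307) and the chaperone genes hsp-1 (300) and dnj-19 (270). Others were the clathrin heavy chain gene chc-1 (295), the late endosomal GTPase gene rab-7 (279) and the proton pump gene vha-1 (310). The calreticulin gene crt-1 (266), the unfolded protein response factor gene xbp-1 (319), the mitochondrial ADP/ATP carrier gene ant-1.1 (322) and the splicing factor gene rsp-3 (298) were of the same level. Among them too were cha-1, for the enzyme that makes acetylcholine (296), the neuropeptide receptor gene npr-1 (285) and the Gq protein gene egl-30 (298), which shared its peak with the ribosomal protein gene rpl-27. Further examples were nurf-1, of a nucleosome remodeller (316), the histone deacetylase gene hda-6 (286), epc-1 (337) and the divergent histone genes his-41 and his-35 (281). The scores of these examples ran from 33.4 at npr-1 to 151 at ant-1.1, against a lowest score of 30.0 over all F14' peaks. That these peaks lack a partner in F11 follows from how the set was chosen. Some, such as those of rpt-4, hsp-1 and crt-1, also list a neighbouring gene that starts close by.

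A few of the 126 were dense. The 6 with at least 600 tags per kb were Y57G11C.1141 (3137), the piRNA cluster headed by 21ur-9229 (2103), ZC178.1 (1258), the 5S rRNA gene rrn-4.2 (1135), F39E9.14 (905) and M01E5.1 (649). In F11 the peaks within 500 bp of a start were srh-292, linc-113 and fbxb-54, all F11-only, and try-9, a trypsin-like protease gene, srh-105 and tos-1, all with a partner in F14'.

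Across chromosomes, the F11-only peaks were most numerous on chromosome V (15 of 42, 35.7%) and the overlapping F11 peaks on chromosome II (17 of 53, 32.1%). In F11 the share with a partner was 9 of 11 on chromosome I (81.8%, 48.2 to 97.7%), 17 of 28 on II (60.7%, 40.6 to 78.5%) and 9 of 24 on V (37.5%, 18.8 to 59.4%). In F14' it was 10.8% on I, 14.4% on II and 5.70% on V (exact intervals 5.08 to 19.6%, 8.62 to 22.1% and 2.64 to 10.5%). Chromosome V thus had the lowest share in both tables, with intervals that overlap those of the other chromosomes. The middle 33% of the chromosomes held 3 of 42 F11-only peaks (7.14%) and 103 of 585 F14'-only peaks (17.6%), against 8 of 53 overlapping ones in F11 (15.1%). The length of a chromosome was taken here as the largest peak or gene coordinate listed for it in F11 or F14'.

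The types of gene nearest to the peaks had similar shares in the sets. A protein-coding gene was nearest at 29 of 42 F11-only peaks (69.0%) and at 420 of 585 F14'-only peaks (71.8%). Of overlapping peaks it was nearest at 38 of 53 in F11 (71.7%) and at 42 of 54 in F14' (77.8%). piRNA genes, which encode small RNAs that silence foreign sequence in the germ line, were nearest at 4 F11-only and 36 F14'-only peaks. Overlapping peaks near a piRNA gene numbered 3 in F11 and 2 in F14'. microRNA, snoRNA and rRNA genes were nearest at 4, 7 and 3 F14'-only peaks and at no peak of the other sets.

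The peaks were also counted against 21 lists of genes, and the shares with a partner over all peaks to read them against are 55.8% in F11 and 8.45% in F14'. Ion channel genes were listed at 4 overlapping F11 peaks and none of the F11-only ones, with a median of 505 tags per kb against 367 for all overlapping F11 peaks. They were best-2 (779 tags per kb), acd-5 (643), stim-1, the sensor of calcium in the endoplasmic reticulum (368), and lgc-30 (282). In F14' they were listed at 6 overlapping and 7 unmatched peaks (medians 598 and 443), so that 46.2% of 13 overlapped. The 6 peaks list 5 genes, since lgc-30 has 2 that meet the same F11 peak, and none was classed as promoter. That of lgc-35 was centred 7360 bp upstream and is given to pes-10 in F11. The list, which counts stim-1 with the channels, was chosen with earlier results known, so this share is a description. The unmatched ones included lgc-26, the ryanodine receptor gene unc-68 (949), the glutamate receptor gene glr-5 (808) and asic-1 (443). The unc-68 peak was centred 17436 bp upstream of its start.

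Chemoreceptor genes had 3 overlapping and 5 F11-only peaks in F11, and 4 overlapping and 40 F14'-only peaks in F14'. The share with a partner was 37.5% of 8 in F11, against 55.8% over all F11 peaks. In F14' it was 9.09% of 44, close to the 8.45% over all F14' peaks. Their median in the F14'-only set was 288 tags per kb against 298 for all such peaks, with sre-47 (2468), str-221 (1674) and srsx-7 (846) highest. The overlapping ones were srh-245 (824 tags per kb in F11), srj-9 (594 in F11 and 642 in F14') and srh-105 (297 and 275), with srg-46 (385) in F14' alone. C-type lectin genes had 1 overlapping and 1 unmatched peak in F11, and 1 overlapping and 18 unmatched in F14' (5.26% of 19 with a partner), where clec-9 (6207), clec-175 (1501) and clec-223 (761) were highest. F-box, MATH and BTB genes had 1 and 3 in F11, and 2 and 18 in F14' (10% of 20), with fbxa-55, fbxa-190 (771) and fbxa-208 (670) highest among the unmatched ones. Nuclear receptor genes had 1 and 0 in F11, and 1 and 4 in F14' (20% of 5), the overlapping one being nhr-259 (312 tags per kb in F11, against 286 in F14'). The F14' shares of lectin, F-box, MATH and BTB, and nuclear receptor genes stand beside 8.45% over all F14' peaks. Each rests on 1 or 2 overlapping peaks.

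The list of H3K4 methylation and histone acetylation genes had mys-2 as its overlapping member and, among F14'-only peaks, ash-2 (306 tags per kb) and set-16 (293), both near the median of their set. Insulin and lifespan genes had age-1 in both tables and 1 further F14'-only peak. Neuropeptide and insulin-like peptide genes had nlp-38 in F11, and flp-21 and nlp-9 (287 and 286) among F14'-only peaks. F14'-only peaks make up 91.5% of all F14' peaks, and lists of few peaks that fall among them are near that background. Lists with F14'-only peaks and no F11 peak were homeobox genes at 7 peaks (median 302 tags per kb), ribosomal protein genes at 5 (298), detoxification genes at 5 (591), collagen and moulting genes at 4 (315), heat shock genes at 3 (300), intestinal genes at 3 (845), histone genes at 2 (288) and muscle genes at 1 (274). piRNA genes were listed at 3 overlapping and 4 F11-only peaks in F11, and at 2 overlapping and 49 unmatched peaks in F14' (3.92% of 51 with a partner). Other noncoding RNA genes were listed at 8 and 6 in F11, and at 6 and 112 in F14' (5.08% of 118). The listed folate cycle genes, neuronal markers and germline markers had none in either table. The exact 95% interval of 0 of 42 F11-only peaks reaches 8.41%, so these absences from F11 say little about lists of few peaks.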

How the data were processed

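H3K4me3 ChIP-seq peaks of F11 and F14' were analysed, 1 library each. Per the labels' protocols, chromatin was fixed for 30 min in 2% formaldehyde and sheared to fragments of 200 to 800 bp. Named in the submitters' processing notes are MACS 1.4.0rc2, Bowtie2 2.1.0 and the genome build ce10. Each peak table belongs to 1 sample, per the labels. Per the file headers, each deposited peak has a count of tags without normalization, a fold (ratio) over background, a score (its p on a log10 scale, multiplied by -10), and an assigned gene. The F11 table also holds the authors' FDR in percent. The control was not analysed here.

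Lines were collapsed to unique intervals (103 lines gave 95 F11 peaks, 1025 gave 639 F14' peaks, covering 227 and 1436 kb) and joined by overlap. In F11, 96 of 100 gene identifiers matched the RefSeq table of WBcel235 and 913 of 923 did in F14'. It was used for names and gene types only. The join was checked on simulated intervals. Intervals of shares are exact Clopper-Pearson 95% intervals, and those of ratios come from an exact binomial interval of the tags of each pair.

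The members and gene lists were chosen with earlier results of these data known. Named by rule were the 8 densest pairs, the 8 highest and 8 lowest ratios, the 10 densest and 10 highest-scoring peaks of each unmatched set, the 3 peaks on each side of the overlap limit, pairs whose class differed, and, per set, at most 4 members of a list. The alternatives were stricter scores, F14' limited to 95 peaks, other overlap rules, merging within 1 kb and other gene assignments. Scripts ran in Python 3.11.15 with pandas 2.3.3, numpy 2.4.6, matplotlib 3.10.9 and scipy 1.17.1.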

Additional observations from a re-analysis of the deposited data

How the results depend on the processing

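Over 19 results and 75 settings, 47 values stayed within their limits and 28 moved. Stricter scores leave fewer peaks by construction, and the same score may not mean the same in F11 and F14'. The sets were formed anew in each setting. Where a cut removed peaks, an unmatched set also counts peaks whose partner was removed by that cut. At a score of at least 100 in both tables, 22 of 27 F11 peaks and 22 of 239 F14' peaks overlapped, and at 50 it was 31 of 51 and 31 of 393. With F14' limited to its 95 highest scores, 12 peaks overlapped in each table. The median ratio, F11 over F14', was 0.899 in that limited setting and 0.838 for tags not divided by length.

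At a score of at least 100, median tags per kb were 350 for F11-only and 506 for F14'-only peaks, and for overlapping ones 571 in F11 and 669 in F14'. In the limited setting they were 309 and 1694, and 1632 and 2030. Median widths at 100 were 3112 bp for F11-only and 2403 bp for F14'-only peaks, and for overlapping ones 2958.5 bp in F11 and 3373 bp in F14'. In the limited setting they were 2810 bp for F14'-only peaks, and 2958 bp in F11 and 3160.5 bp in F14' for overlapping ones.

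Promoter shares at 100 were 20% of 5 F11-only peaks and 50.7% of F14'-only peaks. In the limited setting they were 44.6% of 83 F11-only peaks, 36.1% of F14'-only peaks and 33.3% of overlapping F14' peaks. These 83 peaks are not the 42 F11-only peaks of the main join, since they include peaks whose F14' partner was cut. With the sets formed anew, the F11-only share was above the F14'-only share in that setting. It was below it over all scores and at 100. The promoter share of F14'-only peaks was thus lower in both settings than over all scores. The share of F14'-only peaks with a protein-coding gene was 75.7% over all listed genes and 71.8% over the nearest.

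No paired analysis was possible because each group has 1 library and no result comes from a test. Total depth is unknown, so raw tags were compared without scaling, and F11 levels outside its own peaks were not analysed here.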
